A study of Mus musculus with 6 samples.

Results

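The nuclear genes for the subunits of the mitochondrial respiratory chain and of ATP synthase were followed in liver RNA from Nedd4 HepKO and Flox mice given acetaminophen. Members were the rows of the deposited gene table whose symbols begin with Nduf followed by a, b, c, s or v, with Uqcr, with Cox4 to Cox8 or with Atp5, together with Sdha, Sdhb, Sdhc, Sdhd, Cyc1 and Cycs. Symbols marked "-ps" were left out. The rule found 98 genes of the 28476 in the table. Complex I had 36 of them, complex II 4, complex III 9 and complex V 17. Complex IV had 19, with Ndufa4 and its relative Ndufa4l2 counted there because NDUFA4 is a subunit of cytochrome c oxidase. The other members were Cycs, 8 complex I assembly factors (the Ndufaf genes, which match the pattern but are not subunits) and 4 extra gene copies annotated as processed pseudogenes in GENCODE M21 (Cox6c2, Ndufa11b, Ndufb4c and Ndufs6b).

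The study concerns the ubiquitin ligase NEDD4-1 and its part in liver injury by acetaminophen (APAP), a drug that in overdose is converted in hepatocytes to a metabolite that damages mitochondria. The HepKO group held 3 liver libraries labelled Nedd4 HepKO and the Flox group 3 labelled Flox. Both groups were C57BL/6 mice that had been fasted overnight and then received 300 mg/kg APAP into the peritoneum, and both were sampled at 24 h. The Cre driver, the sex and the age of the mice are not given in the sources used here, and livers without APAP were not analysed here. Nothing in the labels ties each library to a separate animal, and the p-values refer to the variation among the 6 libraries, which may be technical. Values are FPKM, fragments scaled to transcript length and to the total of mapped fragments, and the read depth behind them is unknown.

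Complex I takes electrons from NADH and complex II from succinate, and both pass them to ubiquinone. Complex III hands them on through cytochrome c to complex IV, which reduces oxygen, and complex V, the ATP synthase, uses the proton gradient built by complexes I, III and IV. Mitochondrial DNA encodes a few core subunits of every complex except complex II, and nuclear genes encode the rest, which are imported. Hepatocytes, which make up most of the liver, are rich in mitochondria.

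Nedd4 (ENSMUSG00000032216, chr9:72662346-72749852) served as the check of the labels. It measured 0.618, 0.666 and 0.565 FPKM in the HepKO livers and 2.18, 2.59 and 2.23 FPKM in the Flox livers, a ratio of 0.265. The log2 fold change, here always HepKO over Flox on log2(FPKM + 1), was -1.04 (SE 0.10, limma adjusted p = 0.00148). One HepKO library stood apart from the others. In HepKO replicate 1, mitochondrial genome transcripts took 24.6% of all FPKM, against 18.3% and 17.2% in the other HepKO libraries and 16.7%, 18.1% and 16.98% in Flox. The members' summed FPKM made up 1.05%, 1.29% and 1.41% of the FPKM of all other (non-mitochondrial) genes in HepKO and 1.59%, 1.54% and 1.51% in Flox. The counts and medians by complex and the calls below are therefore also given without HepKO replicate 1. Liver pieces are mixtures, and fewer cells of a type and less RNA per cell cannot be told apart.

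Most subunit transcripts were somewhat lower in HepKO, but few of the differences passed the test gene by gene. Of the 85 subunit genes, 83 reached the mean of 0.5 FPKM needed for testing, and 78 of the 83 had a log2 fold change below 0 (94.0%), against 56.6% of all 12712 genes tested. The median log2 fold change was -0.33 over the 83 subunits and -0.06 over all genes. The 2 sets were not matched for level, with a median of 45.3 FPKM for the subunits and 3.62 FPKM for all genes tested. The log2(FPKM + 1) scale draws changes of low genes towards 0. The rank correlation of log2 fold change with mean FPKM was -0.15 over 10755 protein-coding genes and 0.08 within the subunits. The part of level in these contrasts was not tested. With an adjusted p under 0.05, 9 subunits fell and 1 rose. Over all 95 tested members, 10 fell (10.5%), beside a background of 11.0% of all genes lower in HepKO, and 1 rose (1.05%), beside 9.33% of all genes higher. The share of members that fell is thus close to that of all genes. Leaving out 1 library gave 5 falling members without HepKO replicate 1 (6.23% of all genes fell), 2 without HepKO replicate 2 (4.85%) and 13 without HepKO replicate 3 (10.2%). It gave 5 without Flox replicate 1 (9.18%), 0 without Flox replicate 2 (5.01%; 23 of the members at an unadjusted limma p under 0.05) and 1 without Flox replicate 3 (5.40%). With all libraries, 41 of the 95 tested members and 2660 of all 12712 genes were lower at an unadjusted limma p under 0.05. The HepKO and Flox libraries did not overlap, with HepKO lower, for 50 of the 83 subunits (60.2%) and for 25.2% of all genes. In the other direction they did not overlap for 1 subunit, Ndufa4l2, and for 17.2% of all genes.

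The size of the shift differed between complexes as described here, and no test of a difference between complexes was made. Complex II had the lowest median log2 fold change, -0.52, and 3 of its 4 genes fell. The medians were -0.37 for complex I, where 3 of 36 fell, and -0.35 for complex V, where 2 of 17 fell. Complex IV had a median of -0.22, with 1 of 17 tested genes falling and 1 rising. Complex III had a median of -0.19 and no gene past the limma threshold. At an unadjusted limma p under 0.05, 3 of its 9 genes were lower, beside 2660 of all 12712 genes. The authors' q-values called 0 of the 9. Log2 fold changes lay below 0 for 34 of 36 genes of complex I, 4 of 4 of complex II, 8 of 9 of complex III, 15 of 17 of complex IV and 17 of 17 of complex V.

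**Figure D1:**
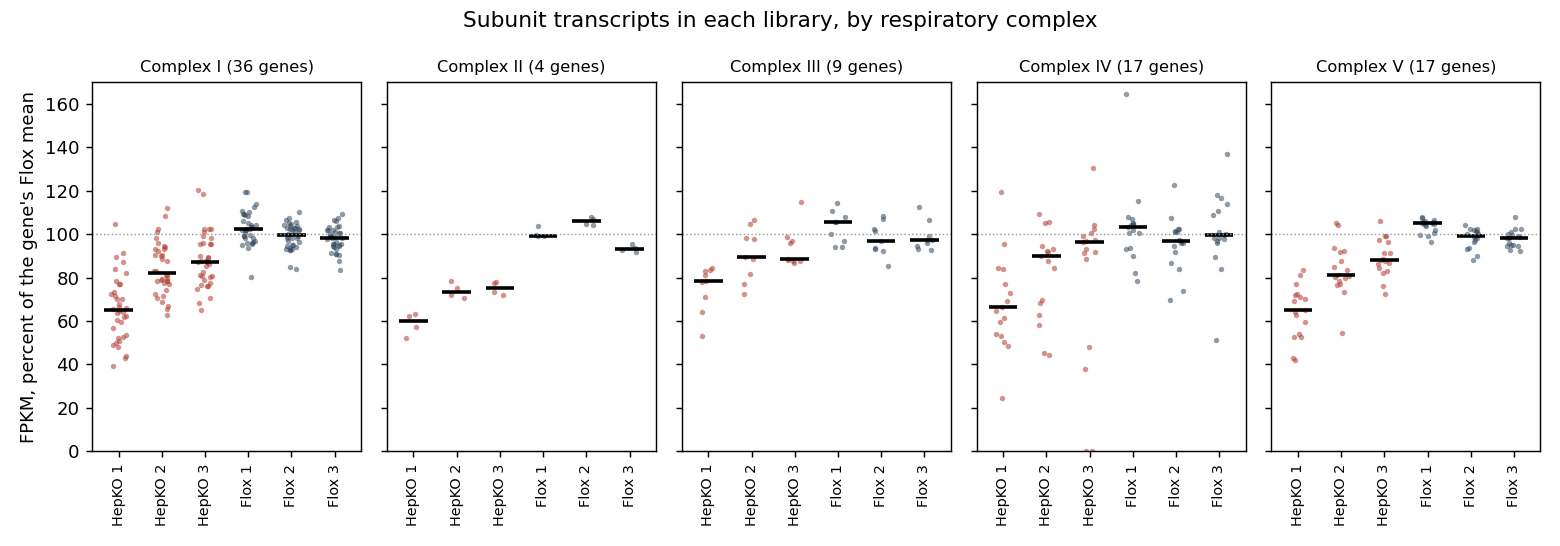
FPKM of each tested subunit gene in each library as a percentage of that gene's Flox mean, by complex, with points for genes and bars for the median over genes (HepKO red, Flox dark blue). HepKO replicate 1 has the lowest median in every panel, from 59.8% for complex II to 78.3% for complex III; the HepKO values of Ndufa4l2 lie above the axis.

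HepKO replicate 1 had lower subunit levels than the other HepKO libraries. Its FPKM was the lowest of the 6 libraries for 71 of the 83 subunits (85.5%), against 31.0% of all genes. That count was 30 of 36 for complex I, 4 of 4 for complex II, 9 of 9 for complex III, 11 of 17 for complex IV and 17 of 17 for complex V. The median ratio of HepKO replicate 1 to the mean of the other HepKO libraries was 0.762 over subunits and 0.922 over all genes. By complex this ratio was 0.749 for I, 0.780 for II, 0.816 for III, 0.795 for IV and 0.732 for V.

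In the complex I genes, the median level as a percentage of the gene's Flox mean was 64.9%, 82.0% and 87.3% in HepKO replicates 1 to 3 and 102%, 99.6% and 98.5% in Flox. Complex V had medians of 65.1%, 81.4% and 88.0% in HepKO and 105%, 99.0% and 98.5% in Flox. These complexes showed the same order of libraries, with every HepKO median below every Flox median. Complex II stood at 59.8%, 73.5% and 75.4% in HepKO, against 99.3%, 106% and 93.3% in Flox. Complex III stood at 78.3%, 89.5% and 88.5% in HepKO and 106%, 97.0% and 97.2% in Flox. For complex IV the HepKO medians were 66.5%, 90.0% and 96.2% and the Flox medians 103%, 97.0% and 99.4%. In complex IV the median of HepKO replicate 3 thus lay next to that of the lowest Flox library, while the complex II medians of all HepKO libraries lay well below those of Flox.

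Without HepKO replicate 1 the medians moved towards 0 but stayed below it. They were -0.42 for complex II, -0.26 for complex I, -0.22 for complex V, -0.17 for complex III and -0.10 for complex IV, beside -0.03 for all genes. Over the 83 subunits the median was -0.23, and 73 of them remained below 0 (88.0%), against 53.4% of all genes. The median ratio of the other HepKO libraries to Flox was 0.744 for complex II, 0.841 for complex I, 0.855 for complex V, 0.887 for complex III and 0.929 for complex IV, with 0.966 over all genes. The order of the complexes was thus the same for I, II and V and changed only between III and IV. Of the members, 5 fell without this library and 1 rose (6.84% of all genes did). The 5 were 1 gene of complex I, 2 of complex II and 2 of complex V.

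**Figure D2:**
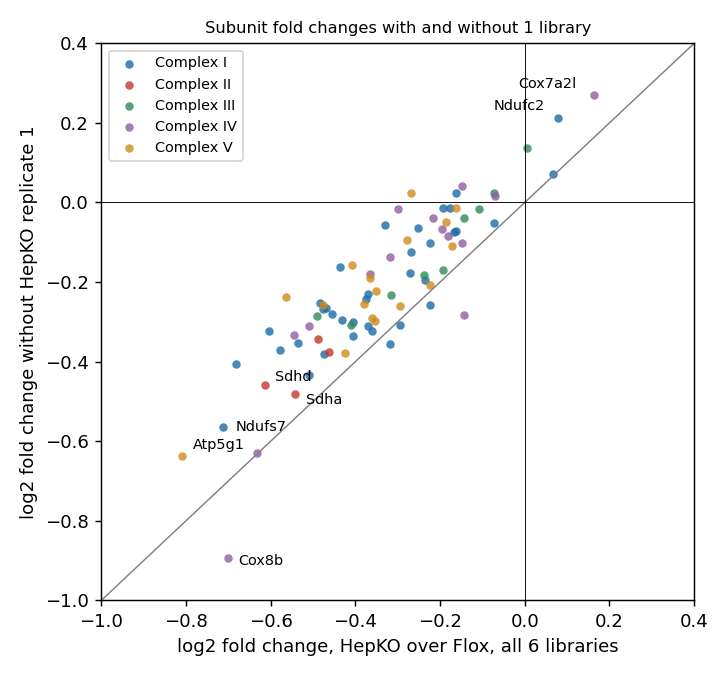
Log2 fold change (HepKO over Flox) of each tested subunit gene with all 6 libraries (x axis) and without HepKO replicate 1 (y axis), with points coloured by complex and a line of equality. Most points lie above the line and below 0 on both axes; Ndufa4l2 and Cox6a2 lie outside the axes drawn.

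Transcript length and scaling were compared as values that move with HepKO replicate 1. The log2 difference of this library from the other HepKO libraries had a median of -0.39 for the 52 subunits with up to 2000 exonic bases and -0.31 for the 31 longer ones. Over all protein-coding genes it was -0.17 for 1672 short genes and -0.06 for 9083 longer ones, and the part of length in the result was not tested. When each library was rescaled by its median ratio to the geometric mean of all libraries, the medians were -0.30 for complex I, -0.45 for II, -0.13 for III, -0.15 for IV and -0.29 for V, with -0.02 for all genes. With this scaling 10 members fell (9.94% of all genes did) and 1 rose (10.8% of all genes did).

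**Figure D3:**
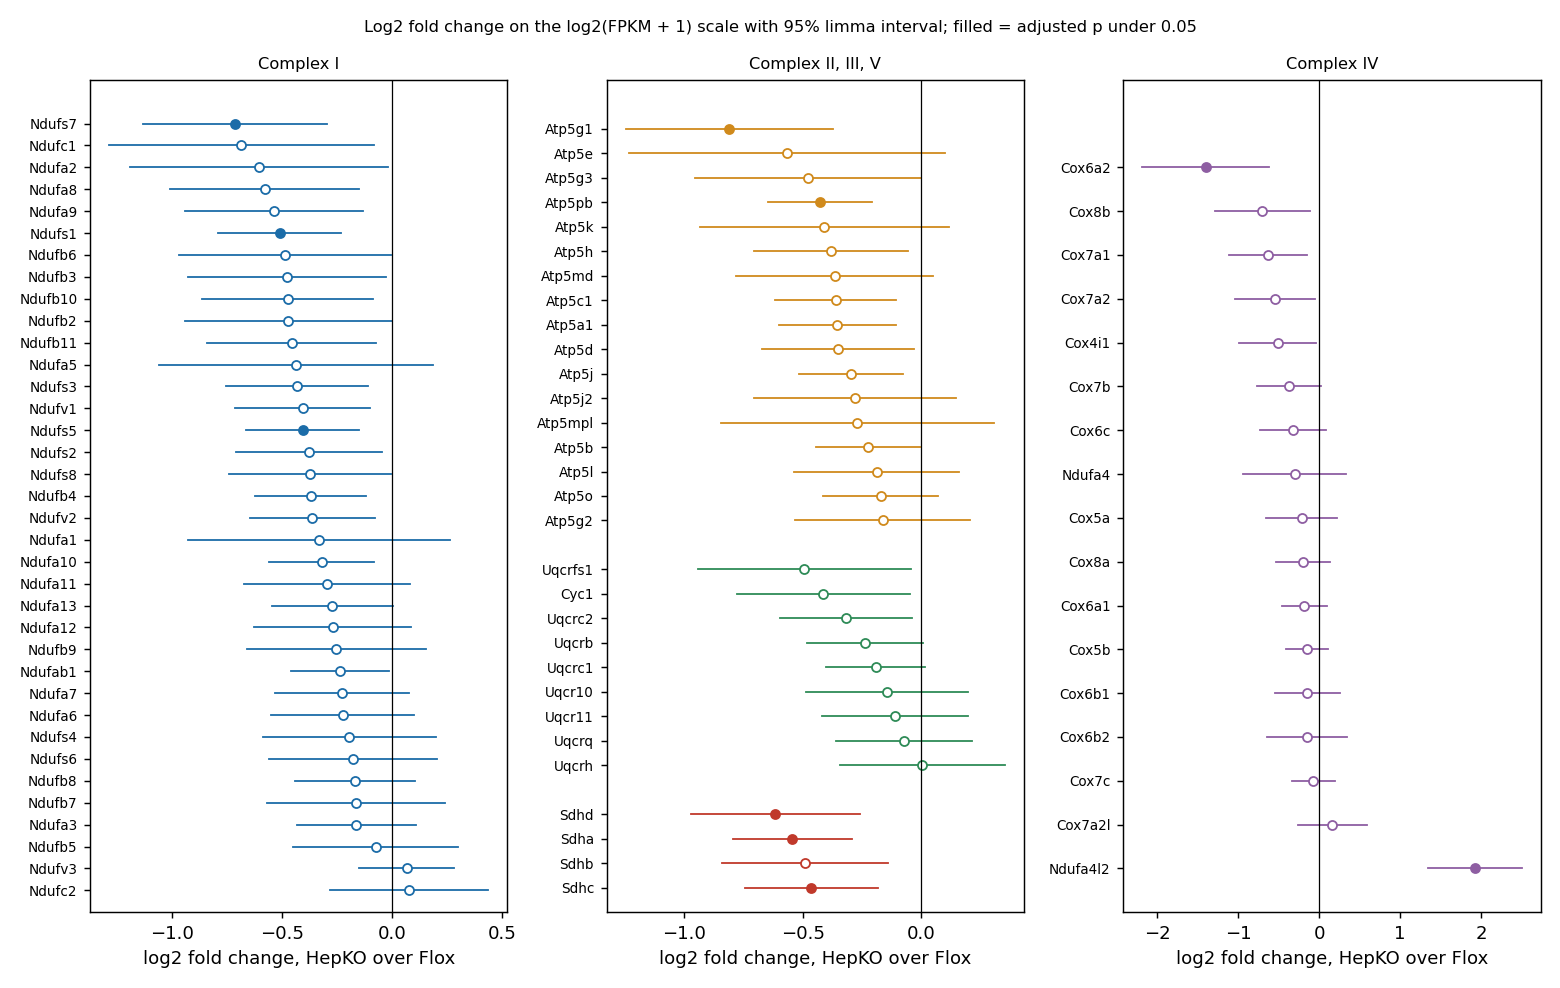
Log2 fold change (HepKO over Flox) of every tested subunit gene with its limma interval, grouped by complex, with filled points for an adjusted p under 0.05. The intervals of most open points lie largely below 0, and the complex IV panel has a wider axis because of Ndufa4l2 and Cox6a2.

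Complex II, succinate dehydrogenase, is wholly encoded in the nucleus and also acts in the tricarboxylic acid cycle. Sdha, the flavoprotein subunit that oxidises succinate (chr13:74322254-74350280), measured 45.1, 51.1 and 52.0 FPKM in HepKO, against 71.7, 77.6 and 67.9 FPKM in Flox. Sdhd, a membrane anchor that helps bind ubiquinone, measured 74.0, 102 and 104 FPKM in HepKO, against 141, 149 and 135 FPKM in Flox. In both genes every HepKO library lay below every Flox library, with replicate 1 lowest. Sdhc, the other membrane anchor, measured 24.8, 29.5 and 30.4 FPKM in HepKO, against 38.8, 42.4 and 36.4 FPKM in Flox. Sdhb, the iron-sulfur subunit, measured 26.0, 35.6 and 35.4 FPKM in HepKO, against 47.1, 47.3 and 41.7 FPKM in Flox. These groups did not overlap either. The 4 HepKO means came to between 65.8% (Sdhd) and 72.0% (Sdhc) of the Flox means, a narrow range within the complex.

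Of the complex II genes, Sdhd fell by 0.61 on the log2 scale (SE 0.15, limma adjusted p = 0.0320). Sdha fell by 0.54 (SE 0.11, limma adjusted p = 0.0155) and Sdhc fell by 0.46 (SE 0.12, limma adjusted p = 0.0366). Sdhb had a log2 fold change of -0.49 (SE 0.15) and did not pass, with an adjusted p of 0.0588 in limma. Without HepKO replicate 1 the limma adjusted p was 0.0314 for Sdhd, 0.0351 for Sdha and 0.0736 for Sdhc. The Sdhd call was also lost without HepKO replicate 2 (limma adjusted p = 0.0636) and without Flox replicates 1, 2 or 3 (0.0697, 0.101 and 0.0777). The Sdha call was lost without HepKO replicate 2 (0.0526) and without Flox replicate 2 (0.0612). The Sdhc call held only without HepKO replicate 3 (0.0468), and was lost without HepKO replicate 2 (0.0880) and Flox replicates 1, 2 or 3 (0.0735, 0.115 and 0.0701).

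The promoters of complex II genes are shown because this complex had the lowest median. The 300-base windows, 250 bases before to 50 bases after the start given by RefSeq on GRCm38.p6, were found for 76 of the 98 members. They were Sdha at chr13:74350191-74350490 (minus strand), Sdhb at chr4:140961021-140961320 (plus strand) and Sdhd at chr9:50603800-50604099 (minus strand), each written 5′ to 3′ on the gene's strand. Capitals mark any match, on either strand, to the motif letters of factors known to act on respiratory genes: GCGCA followed directly by TGCGC for NRF1, CCGGAAG for ETS factors such as GABPA, AAGATGGC for YY1 and TCAAGGTCA for ESRRA.
Sdha: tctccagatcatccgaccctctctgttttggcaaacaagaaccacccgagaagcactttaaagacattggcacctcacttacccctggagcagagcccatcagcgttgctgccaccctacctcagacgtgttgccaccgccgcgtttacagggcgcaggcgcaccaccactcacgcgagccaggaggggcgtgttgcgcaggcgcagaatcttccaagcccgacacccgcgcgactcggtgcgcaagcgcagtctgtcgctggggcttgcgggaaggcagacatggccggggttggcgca
Sdhb: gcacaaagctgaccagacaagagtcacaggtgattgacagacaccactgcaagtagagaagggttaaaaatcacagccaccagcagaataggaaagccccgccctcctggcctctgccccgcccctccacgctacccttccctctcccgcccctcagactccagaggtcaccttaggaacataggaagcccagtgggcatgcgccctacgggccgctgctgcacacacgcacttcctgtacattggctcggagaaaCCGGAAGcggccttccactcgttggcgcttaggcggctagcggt
Sdhd: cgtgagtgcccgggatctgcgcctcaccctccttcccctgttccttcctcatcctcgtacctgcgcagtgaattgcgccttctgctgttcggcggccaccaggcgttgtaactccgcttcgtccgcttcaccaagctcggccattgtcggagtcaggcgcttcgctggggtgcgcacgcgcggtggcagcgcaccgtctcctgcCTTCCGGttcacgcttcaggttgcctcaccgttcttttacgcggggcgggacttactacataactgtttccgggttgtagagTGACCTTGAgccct

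The Sdhb window held the ETS letters and the Sdhd window held both the ETS letters and the ESRRA letters, read on the opposite strand, while the Sdha window held none of the 4 motifs. A few genes have more than 1 window, and a gene was counted where any of its windows held the letters. Among the 68 subunit genes with a window, 17 held the ETS letters (25%), against 9.93% of 27025 genes with a window. The NRF1 letters were in 5 (7.35%, against 1.07% of all), the YY1 letters in 10 (14.7%, against 3.19%) and the ESRRA letters in 2 (2.94%, against 0.466%). Of the 10 genes with the YY1 letters, 7 belonged to complex I and 3 to complex V. The median GC content of the first window of each gene was 57.8% for the subunits and 52.7% for all genes. A match is a description of these letters, not a binding site. No relation between a motif and a fold change was tested.

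Complex I was represented by 36 tested genes, of which Ndufs7, Ndufs1 and Ndufs5 fell. Ndufs7, the subunit that carries the last iron-sulfur cluster before ubiquinone, measured 15.9, 22.3 and 21.6 FPKM in HepKO, against 39.7, 30.8 and 29.1 FPKM in Flox. Ndufs1, the largest iron-sulfur subunit of the peripheral arm, measured 5.72, 6.30 and 7.48 FPKM in HepKO, against 9.16, 10.0 and 9.70 FPKM in Flox. Ndufs5, an accessory subunit, measured 31.4, 37.4 and 35.3 FPKM in HepKO, against 43.1, 47.6 and 47.8 FPKM in Flox. The groups did not overlap for any of these genes. Ndufs7 fell by 0.71 on the log2 scale (SE 0.17, limma adjusted p = 0.0325). Ndufs1 fell by 0.51 (SE 0.12, limma adjusted p = 0.0266) and Ndufs5 fell by 0.40 (SE 0.11, limma adjusted p = 0.0413).

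These complex I calls were close to the threshold. Leaving out any 1 of the 6 libraries ended the Ndufs7 call, with limma adjusted p between 0.0517 and 0.0774, and the Ndufs5 call, with limma adjusted p between 0.0526 and 0.125. Without HepKO replicate 1 they were 0.0684 and 0.0839. The Ndufs1 call was lost without HepKO replicate 1 (limma adjusted p = 0.0661), HepKO replicate 2 (0.0892), Flox replicate 2 (0.0881) or Flox replicate 3 (0.0805). The complex I gene called without HepKO replicate 1 was Ndufa8, an accessory subunit, chosen here after its values were seen. It measured 44.2, 69.1 and 67.9 FPKM in HepKO, against 89.5, 90.5 and 86.8 FPKM in Flox, and its limma adjusted p was 0.0463 without that library and 0.0658 with all libraries.

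The complex I genes with the highest FPKM, which all encode accessory subunits of the membrane arm, did not pass. Ndufb9 measured 96.3, 139 and 146 FPKM in HepKO, against 155, 142 and 150.5 FPKM in Flox (limma adjusted p = 0.333). Ndufa1 measured 59.3, 100.2 and 112 FPKM in HepKO, against 121, 93.1 and 118 FPKM in Flox (limma adjusted p = 0.383). Ndufb11 measured 60.6, 84.3 and 91.3 FPKM in HepKO, against 109, 105 and 106 FPKM in Flox (limma adjusted p = 0.0924). HepKO replicate 1 was lowest for each. The groups overlapped for Ndufb9 and Ndufa1 and did not overlap for Ndufb11. Across the 36 genes log2 fold changes ran from -0.71 (Ndufs7) to 0.08 (Ndufc2), with quartiles of -0.47 and -0.22. At an unadjusted limma p under 0.05, 2660 of all 12712 genes tested were lower and 1876 higher. Among the 36 complex I genes, 19 were lower and 0 higher at that threshold. Only Ndufc2 and Ndufv3, at 0.07, had log2 fold changes above 0, and neither passed.

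The 8 Ndufaf genes act in building complex I and are not part of it. Their median log2 fold change was -0.29, and 1 of them, Ndufaf6, fell (12.5%, beside 11.0% of all genes). It measured 2.85, 2.52 and 3.49 FPKM in HepKO, against 4.10, 5.83 and 4.86 FPKM in Flox, without overlap. It fell by 0.58 on the log2 scale (SE 0.15, limma adjusted p = 0.0378). That call was lost without HepKO replicate 1 (limma adjusted p = 0.0979), HepKO replicate 2 (0.117), Flox replicate 2 (0.109) or Flox replicate 3 (0.0990). Of 9 other complex I assembly factors, 2 fell (22.2%, beside 11.0% of all genes) and none rose, with a median of -0.29. These were Timmdc1 (log2 fold change -0.94, limma adjusted p = 0.00616) and Tmem126b (-0.73, limma adjusted p = 0.00781), both of the module that assembles the membrane arm. Their calls held without any 1 library.

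**Figure D4:**
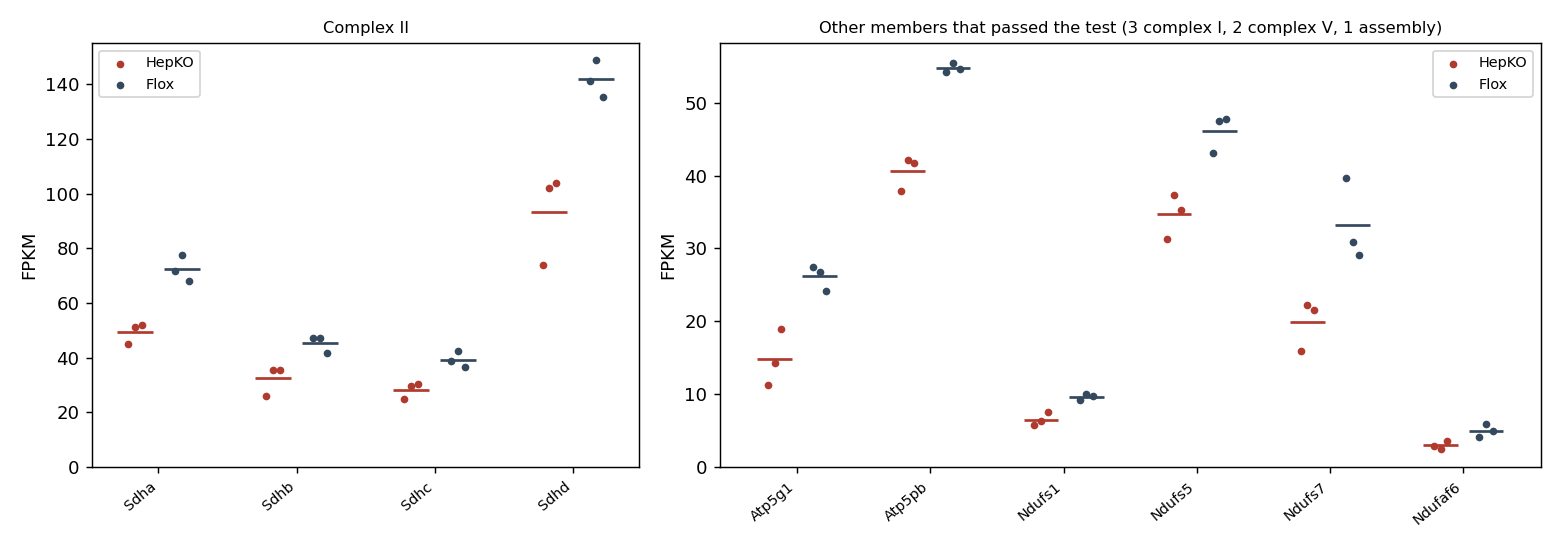
FPKM in each HepKO (red) and Flox (dark blue) library for the complex II genes (left) and for the 6 other members, apart from the complex IV genes Cox6a2 and Ndufa4l2, that passed the test (right), with bars at the group means. No HepKO point reaches a Flox point of the same gene; Sdhb, in the left panel, did not pass.

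Complex III had no gene that passed. Uqcr10 and Uqcrb, small supernumerary subunits, were among its highest. Uqcr10 measured 130, 163 and 160 FPKM in HepKO, against 180, 143 and 178 FPKM in Flox, with overlap (limma adjusted p = 0.514). Uqcrb measured 103, 117 and 115 FPKM in HepKO, against 124, 141 and 131 FPKM in Flox, without overlap (limma adjusted p = 0.150). Uqcrfs1, the Rieske iron-sulfur protein, measured 64.1, 93.5 and 105 FPKM in HepKO, against 128, 123 and 112 FPKM in Flox. Cyc1, the cytochrome that passes electrons to cytochrome c, measured 47.3, 53.4 and 65.2 FPKM in HepKO, against 84.3, 67.9 and 68.7 FPKM in Flox. Uqcrfs1 and Cyc1 had the lowest log2 fold changes of the complex, at -0.49 (limma adjusted p = 0.113) and -0.41 (limma adjusted p = 0.105), and their groups did not overlap. Uqcrh, the hinge protein, stood at 0.01.

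Cytochrome c itself, from Cycs, carries electrons from complex III to complex IV and, once released, takes part in cell death. It measured 52.7, 59.3 and 65.5 FPKM in HepKO, against 61.7, 54.8 and 53.2 FPKM in Flox, with overlap. The log2 fold change was 0.06 with a limma interval of -0.22 to 0.35 (adjusted p = 0.754). That interval includes the median of the subunits of complex III, and no test compared Cycs with them.

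Complex IV gave the member with the largest difference. Ndufa4l2, a relative of Ndufa4 known to be induced by hypoxia (chr10:127514967-127517053), measured 6.81, 5.63 and 3.03 FPKM in HepKO, against 0.465, 0.571 and 0.658 FPKM in Flox. Every HepKO library lay well above every Flox library, and HepKO replicate 3 was the lowest of the HepKO libraries. The ratio of means was 9.13. Ndufa4l2 rose by 1.92 on the log2 scale (SE 0.24, limma adjusted p = 0.00334), and the call held in each of the 6 fits without 1 library. Without HepKO replicate 1 the log2 fold change was 1.73 (limma adjusted p = 0.0106). Ndufa4 measured 86.8, 149 and 164 FPKM in HepKO, against 126, 173 and 183 FPKM in Flox, with overlap (limma adjusted p = 0.464).

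The subunits of complex IV with the highest FPKM were the isoforms usual in liver. Cox6a1 measured 277, 333 and 347 FPKM in HepKO, against 380, 349.6 and 352 FPKM in Flox (limma adjusted p = 0.312). Cox8a measured 173, 218 and 236 FPKM in HepKO, against 255, 228 and 230.1 FPKM in Flox (limma adjusted p = 0.356). HepKO replicate 1 was lowest in both, and HepKO replicate 3 lay close to Flox. Cox4i1, a subunit through which ATP is known to regulate the enzyme, measured 116, 152 and 203 FPKM in HepKO, against 227, 209 and 218 FPKM in Flox. Cox7a2 measured 47.4, 63.9 and 86.2 FPKM in HepKO, against 95.4, 96.0 and 90.0 FPKM in Flox. The groups did not overlap for Cox4i1 (log2 fold change -0.51, limma adjusted p = 0.120) or Cox7a2 (-0.55, limma adjusted p = 0.112). Of the alternatives run, both passed only without HepKO replicate 3, with limma adjusted p of 0.0279 and 0.0264. Cox6b1 measured 120.4, 182 and 175 FPKM in HepKO, against 179, 169 and 173 FPKM in Flox (limma adjusted p = 0.575). Cox7a2l, which helps join complexes III and IV, measured 52.8, 60.5 and 72.3 FPKM in HepKO, against 51.8, 68.0 and 46.5 FPKM in Flox (limma adjusted p = 0.557).

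The isoforms known from heart and skeletal muscle were near the limit of testing. Cox6a2 measured 0.855 and 1.56 FPKM in HepKO replicates 1 and 2 and was listed at 0 in HepKO replicate 3, against 3.11, 3.18 and 4.09 FPKM in Flox. Cox7a1 measured 1.26, 1.62 and 0.976 FPKM in HepKO, against 2.41, 1.81 and 3.56 FPKM in Flox. Cox8b measured 0.888 and 0.611 FPKM in HepKO replicates 1 and 2 and was listed at 0 in HepKO replicate 3, against 1.58, 1.01 and 1.52 FPKM in Flox. HepKO lay below Flox without overlap for all of them. Cox6a2 fell by 1.40 on the log2 scale (SE 0.33, limma adjusted p = 0.0280). The Cox6a2 call was lost without HepKO replicate 1 (limma adjusted p = 0.0664) and without Flox replicates 1, 2 or 3 (0.0588, 0.0762 and 0.0876). Cox7a1 and Cox8b did not pass (limma adjusted p = 0.0689 and 0.0903).

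Beside these muscle isoforms, the summed FPKM of 5 striated muscle marker genes was 5.31, 6.46 and 1.19 in HepKO and 11.4, 14.1 and 10.1 in Flox. Of the 2 tested genes among them 1, Ckm, was lower (11.0% of all genes fell). Ckm averaged 0.558 FPKM over the 6 libraries, close to the mean of 0.5 FPKM needed for testing. It can have reached that mean through Flox alone, so its call carries little weight. The Ckm call was kept only without Flox replicate 1, and its limma adjusted p was 0.0594 without HepKO replicate 1 and 0.0273 with all libraries. Mb, myoglobin, measured 4.62, 6.00 and 0.331 FPKM in HepKO, against 10.5, 13.1 and 9.17 FPKM in Flox (limma adjusted p = 0.0951). Of 4 brown adipocyte markers, Ucp1 and Adipoq were at 0 in every library and Cidea was too low to test. The fourth, Elovl3, measured 5.64, 5.71 and 9.28 FPKM in HepKO, against 38.1, 6.21 and 7.29 FPKM in Flox (log2 fold change -0.78, limma adjusted p = 0.414). The 4 genes summed to 5.76, 5.99 and 9.28 FPKM in HepKO and 38.1, 6.21 and 7.48 FPKM in Flox. These sums, with the high one of Flox replicate 1, are almost wholly Elovl3, so they rest on 1 gene and not on the set of markers. The part of muscle or fat tissue in the isoform values was not tested. Of the isoforms known from other organs, Cox4i2 (lung) measured 0.666, 0.506 and 0.633 FPKM in HepKO, against 0.160 and 0.598 FPKM in Flox replicates 1 and 2 and a value listed at 0 in Flox replicate 3, and was too low to test. Cox6b2 (testis) measured 0.843, 0.411 and 0.339 FPKM in HepKO, against 1.16, 0.593 and 0.362 FPKM in Flox (limma adjusted p = 0.661). Cox8c was listed at 0 in all libraries.

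**Figure D5:**
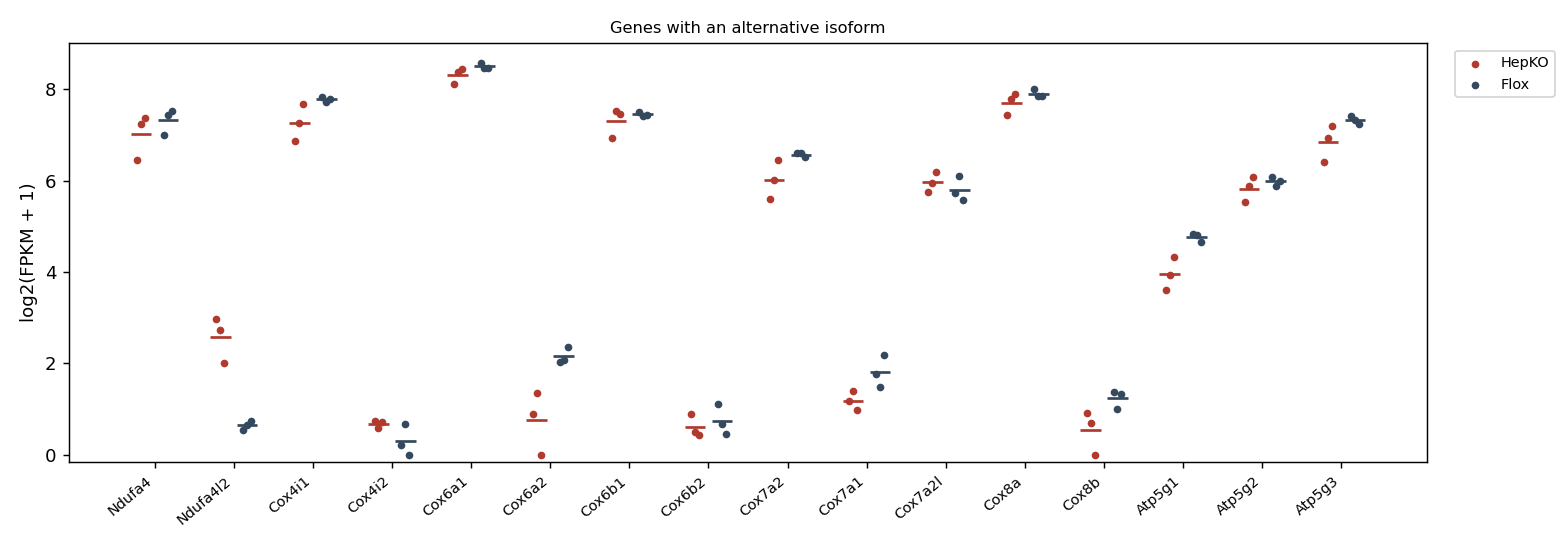
Log2(FPKM + 1) in each HepKO (red) and Flox (dark blue) library for the members that have an alternative isoform gene, with bars at the group means. Ndufa4l2 is the one gene with all HepKO points far above Flox, and Cox6a2, Cox7a1 and Cox8b lie low with HepKO below Flox.

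In complex V all 17 genes had log2 fold changes below 0, from -0.81 (Atp5g1) to -0.16 (Atp5g2), and Atp5g1 and Atp5pb fell. Atp5pb, the peripheral stalk subunit b, measured 38.0, 42.2 and 41.7 FPKM in HepKO, against 54.3, 55.5 and 54.7 FPKM in Flox, without overlap. It fell by 0.43 on the log2 scale (SE 0.09, limma adjusted p = 0.0216), and with limma adjusted p = 0.0439 without HepKO replicate 1. The Atp5pb call was lost without HepKO replicate 2 (limma adjusted p = 0.0658), Flox replicate 2 (0.0760) or Flox replicate 3 (0.0712). Atp5b and Atp5a1 encode the beta and alpha subunits of the catalytic head. Atp5b measured 172, 176 and 182 FPKM in HepKO, against 216, 207 and 196 FPKM in Flox (limma adjusted p = 0.132). Atp5a1 measured 130, 144 and 147 FPKM in HepKO, against 190, 183 and 167 FPKM in Flox (limma adjusted p = 0.0544). Neither passed, although their groups did not overlap.

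Subunit c, which forms the rotating ring, is encoded by 3 genes, Atp5g1, Atp5g2 and Atp5g3, whose mature products are identical. Atp5g1 measured 11.2, 14.2 and 18.9 FPKM in HepKO, against 27.5, 26.8 and 24.2 FPKM in Flox. Atp5g2 measured 45.0, 57.5 and 66.3 FPKM in HepKO, against 66.3, 58.0 and 62.9 FPKM in Flox. Atp5g3 measured 84.1, 122 and 146 FPKM in HepKO, against 169, 159 and 150.4 FPKM in Flox. Atp5g1, with the lowest FPKM of the 3 genes, had HepKO means at 56.6% of Flox and fell by 0.81 on the log2 scale (SE 0.18, limma adjusted p = 0.0256). The Atp5g1 call held without HepKO replicate 1 (limma adjusted p = 0.0463) and HepKO replicate 3 (0.0102), and was lost without HepKO replicate 2 (0.0810) or Flox replicates 1, 2 or 3 (0.0646, 0.0816 and 0.0603). Atp5g3 had a log2 fold change of -0.48 without overlap (limma adjusted p = 0.140), and Atp5g2 -0.16 with overlap (limma adjusted p = 0.493). Whether the 3 genes differed from each other was not tested.

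The promoter windows of the subunit c genes are shown because these genes make the same mature protein under separate starts. The windows, on GRCm38.p6 and all on the minus strand, were Atp5g1 at chr11:96075582-96075881, Atp5g2 at chr15:102670998-102671297 and Atp5g3 at chr2:73911277-73911576, with capitals as above.
Atp5g1: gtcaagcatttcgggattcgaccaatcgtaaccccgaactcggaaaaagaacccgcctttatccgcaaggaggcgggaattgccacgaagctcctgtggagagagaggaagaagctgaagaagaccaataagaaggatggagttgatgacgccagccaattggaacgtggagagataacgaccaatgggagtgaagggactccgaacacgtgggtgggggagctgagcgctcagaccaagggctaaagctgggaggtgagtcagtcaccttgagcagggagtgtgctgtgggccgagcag
Atp5g2: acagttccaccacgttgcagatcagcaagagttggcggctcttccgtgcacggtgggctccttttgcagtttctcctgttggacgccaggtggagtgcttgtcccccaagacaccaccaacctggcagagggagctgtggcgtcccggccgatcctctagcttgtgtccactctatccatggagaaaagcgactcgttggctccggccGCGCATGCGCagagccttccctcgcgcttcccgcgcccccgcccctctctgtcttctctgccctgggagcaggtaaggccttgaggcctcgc
Atp5g3: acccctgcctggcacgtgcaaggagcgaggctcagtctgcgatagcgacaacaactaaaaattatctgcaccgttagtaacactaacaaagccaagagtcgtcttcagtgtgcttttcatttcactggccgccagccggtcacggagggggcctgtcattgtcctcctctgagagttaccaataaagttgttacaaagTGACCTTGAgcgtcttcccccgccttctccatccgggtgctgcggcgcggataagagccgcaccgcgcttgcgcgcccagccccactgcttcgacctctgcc

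The Atp5g2 window held the NRF1 letters and the Atp5g3 window held the ESRRA letters, read on the opposite strand, while the Atp5g1 window held none of the 4 motifs. The 15 complex V genes with a window held the ETS letters in 6 cases, the YY1 letters in 3, the NRF1 letters in 2 and the ESRRA letters in 1.

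The authors' deposited q-values, which come from the authors' own test, were under 0.05 and lower in HepKO for 3 of the 98 members, beside 3.57% of all 28476 genes in the table. Of those genes 12712 reached the mean of 0.5 FPKM, against 95 of the 98 members, so the shares are not like for like. The 3 members were Ndufs7 (q-value 0.0183 in the authors' deposited table), Sdhd (0.0407 there) and Atp5g1 (0.00372 there). In the authors' deposited table a single member, Ndufa4l2, was higher with a q-value of 9.23e-10, beside 5.39% of all genes. All of these members also passed the limma test.

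Genes that work with the complexes were summarised by list. Of 23 complex IV assembly factors, 7 fell and none rose (11.0% of all genes fell and 9.33% rose), with a median log2 fold change of -0.40. Without HepKO replicate 1 the count was 4 (6.23% of all genes fell) and the median -0.29. The count was 2 without HepKO replicate 2, 6 without HepKO replicate 3, and 4, 3 and 2 without Flox replicates 1, 2 and 3. The authors' q-values under 0.05 called 3 of the 23 lower and, unlike limma, 1 higher (3.57% and 5.39% of all genes in the table). Cox19, a copper protein of the intermembrane space, had a log2 fold change of -0.89 (limma adjusted p = 0.0102). Coa3, which stabilises newly made COX1, had -0.78 (limma adjusted p = 0.00388), and Coa6, which acts in copper delivery, had -0.74 (limma adjusted p = 0.0177). The Cox19 and Coa3 calls held without any 1 library. The Coa6 call was lost without HepKO replicate 2 (limma adjusted p = 0.0519), Flox replicate 2 (0.0661) or Flox replicate 3 (0.0618). The assembly factors of complex II (4 tested, median -0.36), complex III (5, median -0.27) and complex V (5, median -0.23) had no gene past the limma threshold with all libraries. At an unadjusted limma p under 0.05, 2, 2 and 1 of them were lower, beside 2660 of all 12712 genes. The authors' q-values called 0 of these factors. One complex II factor, Sdhaf4, fell without HepKO replicate 1. It measured 3.80, 6.64 and 8.43 FPKM in HepKO, against 12.2, 11.8 and 10.8 FPKM in Flox. Its limma adjusted p was 0.0483 without that library and 0.0510 with all libraries. Without HepKO replicate 3, 2 complex II factors and 1 complex V factor fell, and with median-ratio scaling 2 complex II factors fell.

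Of 18 genes of electron entry and ubiquinone synthesis, 7 fell and none rose (11.0% of all genes fell and 9.33% rose), with a median of -0.38. The count was 5 without HepKO replicate 1 (6.23% of all genes fell), with a median of -0.37. The count was 4 without HepKO replicate 2 or Flox replicate 2, 5 without Flox replicate 3, and 6 without HepKO replicate 3 or Flox replicate 1. Coq8a, which acts in ubiquinone synthesis, measured 4.33, 4.71 and 4.75 FPKM in HepKO, against 17.3, 13.3 and 12.5 FPKM in Flox (log2 fold change -1.45, limma adjusted p = 0.00142). The HepKO values were close together and far below Flox. Prodh, proline dehydrogenase, had a log2 fold change of -1.25 (limma adjusted p = 0.00247), and Etfb, a subunit of the electron transfer flavoprotein, had -0.91 (limma adjusted p = 0.0121). These calls held without any 1 library. Of 14 genes of the tricarboxylic acid cycle, 2 fell, with a median of -0.26. They were Ogdh, of the 2-oxoglutarate dehydrogenase complex (log2 fold change -0.42, limma adjusted p = 0.0391), and Cs, citrate synthase (-0.38, limma adjusted p = 0.0260). Leaving out any 1 library ended both calls, with limma adjusted p from 0.0560 to 0.127 for Ogdh and from 0.0517 to 0.0897 for Cs.

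The list of regulators of respiratory genes, which also holds a helicase of mitochondrial DNA, had a median log2 fold change of -0.05 over 14 tested genes. Of these 1 fell (7.14%, beside 11.0% of all genes). That was Twnk, the helicase itself rather than a regulator (log2 fold change -0.72, limma adjusted p = 0.0136). The Twnk call was lost without HepKO replicate 2 (limma adjusted p = 0.0561). No other gene of the list passed with all libraries on the values as deposited. With median-ratio scaling 1 gene of the list fell and 1 rose (9.94% and 10.8% of all genes did). Without HepKO replicate 3, 2 genes of the list fell (10.2% of all genes did). The 13 subunit genes of the mitochondrial genome had a median log2 fold change of 0.28, which was 0.07 without HepKO replicate 1. Their summed FPKM was 115960, 83476 and 73322 in HepKO and 70364, 78142 and 72661 in Flox, so that HepKO replicate 1, lowest for most nuclear subunits, was the highest for these. Of the 13 genes 1 fell (7.69%, beside 11.0% of all genes). That was mt-Nd3, a membrane subunit of complex I (log2 fold change -0.36, limma adjusted p = 0.0480). Leaving out any 1 library ended that call, with limma adjusted p from 0.0548 to 0.165, and so did median-ratio scaling. Of the 13 genes, mt-Nd3 was the only 1 with a log2 fold change below 0. The groups did not overlap, with HepKO higher, for 3 of the 13 (17.2% of all genes). The authors' q-values called 1 of the 13 higher and 0 lower (5.39% and 3.57% of all genes in the table).

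Markers of other cells also differed between the groups. The counts below stand beside 9.33% of all genes tested that were higher and 11.0% that were lower. The summed FPKM of 10 hepatocyte markers was 48102, 45438 and 43272 in HepKO and 39094, 44940 and 44324 in Flox. Of them 1 was lower and 1 higher (10% each), near the shares of all genes. All 7 neutrophil markers rose, with sums of 132, 158 and 141 FPKM in HepKO and 20.2, 10.5 and 19.6 FPKM in Flox. The lowest of the 7 averaged 0.847 FPKM over the 6 libraries. Such a low marker can reach the mean of 0.5 FPKM needed for testing through HepKO alone, which limits this count. Erythroid markers, of which 4 of 5 rose, summed to 974, 889 and 551 FPKM in HepKO and 132, 165 and 234 FPKM in Flox. Endothelial markers, of which 3 of 5 rose and 1 fell, summed to 35.6, 38.8 and 27.0 FPKM in HepKO and 15.8, 17.1 and 16.6 FPKM in Flox. Macrophage and monocyte markers, of which 2 of 7 tested rose, summed to 142, 146 and 123 FPKM in HepKO and 90.2, 88.0 and 129 FPKM in Flox. Stellate cell markers, of which 1 of 5 rose, summed to 45.0, 40.6 and 31.5 FPKM in HepKO and 24.99, 18.9 and 28.8 FPKM in Flox. Cholangiocyte markers, of which 1 of 3 tested rose, summed to 16.9, 15.3 and 13.7 FPKM in HepKO and 4.23, 4.26 and 5.56 FPKM in Flox. The neutrophil, erythroid and cholangiocyte counts were the same with any 1 library left out. Fewer of the other markers rose without HepKO replicate 1, with 2 endothelial and 1 macrophage and monocyte marker left (6.84% of all genes rose). Leaving out any other single library gave these same counts, except that 3 endothelial markers rose without HepKO replicate 3. The stellate call, Dcn, was kept only without HepKO replicate 3, and its limma adjusted p was 0.103 without HepKO replicate 1 and 0.0378 with all libraries. The part of these cells in the lower subunit levels was not tested.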

How the data were processed

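RNA of whole livers was measured as poly(A) RNA by paired-end sequencing in 3 HepKO and 3 Flox libraries, per the labels' protocols. The authors deposited 1 table of 28476 genes with an FPKM per library, and p-values and q-values of the authors' own test, per the file headers. Tools listed without roles in the submitters' processing notes are edgeR, DESeq2, StringTie 1.3.4d, HISAT2 2.0.4 and cutadapt 1.9. Neither the genome build nor the strand setting of the counting was given in the sources used here. GENCODE M21 (GRCm38) holds 28396 of the identifiers, 25619 with the same coordinates (84 of the 98 members), and coordinates are therefore named GRCm38. No read counts were used, depth is unknown, and no count test was run.

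The test was limma (version 3.58.1, R 4.3.3) with a variance trend, two-sided, on log2(FPKM + 1) of the genes averaging 0.5 FPKM or more, adjusted by Benjamini-Hochberg over 12712 genes at 0.05. This scale understates changes of low genes. The fit was tested on simulated data. Summaries used Python 3.11.15 and pandas 2.3.3. The members and lists were chosen with earlier results of these data known, so no test was made over them. Genes were named by rule: the 3 highest of each complex, complex II, Cyc1, Cycs, genes with isoforms, up to 4 members past the threshold per complex and direction, and up to 3 of each other list; Ndufa8, Ndufc2, Ndufv3, Uqcrh, Cox8c, Sdhaf4, Mb, Ckm, Dcn and Elovl3 were named after their values were seen. The alternatives were other pseudocounts, filters, scalings and variance models, a replicate block and each library left out. Promoter sequences are from RefSeq. The 12 symbols marked "-ps" were kept out by the rule.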

Additional observations from a re-analysis of the deposited data

How the results depend on the processing

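Depth is unknown, so the precision of low members is too. There were 16 alternative settings and 1 more chosen after seeing the data. None moved a complex median by more than the spread between libraries (SD 0.09 to 0.18). That spread was taken from the same 6 libraries, so leaving 1 of them out could hardly exceed it. Without HepKO replicate 1 the complex IV median went from -0.22 to -0.10. The count of members higher in HepKO was 1 in each setting. The main count of 10 lower members became 3 with no filter on low values (more genes tested), 12 and 15 when libraries were scaled to a common sum of all or of non-mitochondrial genes, and 0 with median-ratio scaling and without HepKO replicate 1 together (limma; 22 of them at an unadjusted p under 0.05). Leaving out single libraries gave 0 to 13 members: 5 without HepKO replicate 1, 2 without HepKO replicate 2, 13 without HepKO replicate 3, 5 without Flox replicate 1, 0 without Flox replicate 2 and 1 without Flox replicate 3; for the 0, limma gave 23 at an unadjusted p under 0.05. Over all genes the main count of 2583 became 1637 with median-ratio scaling without HepKO replicate 1 and lay between 1306 and 2282 with 1 library left out. The split of higher to lower genes was 1186 to 1397 as deposited, 1377 to 1263 with median-ratio scaling and 1024 to 1469 with a common sum, and the median of all genes was -0.06, -0.02 and -0.10. The replicate block gave 1551 genes and 0 lower members, with 31 members lower at an unadjusted limma p under 0.05. With all libraries and no block, 41 members and 2660 of all 12712 genes were lower at that threshold. The count over all genes at that threshold was not made for the other settings. Same-numbered libraries did not deviate together (correlations 0.0029, 0.0021 and -0.025), so these values show no pairing by number. With 3 libraries per group they cannot exclude one. Among the named members no called fold change changed sign; Sdhb (limma adjusted p = 0.0480) and Atp5a1 (0.0472) passed with a common sum without mitochondrial genes. For the other changes of calls the cause was not tested.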

Other observations

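Some members have close copies in the genome, and the counting may split reads between them, so their FPKM are uncertain. Among the 12 symbols left out by the rule, Ndufa12-ps measured 73.1, 69.4 and 58.9 FPKM in HepKO and 68.6, 78.8 and 69.1 FPKM in Flox. That was above its parent Ndufa12 at 8.48, 12.3 and 11.3 FPKM in HepKO and 14.1, 12.1 and 12.8 FPKM in Flox. The groups overlapped for both. Cox5b-ps measured 20.7, 34.1 and 47.0 FPKM in HepKO and 46.5, 48.6 and 45.7 FPKM in Flox, set beside Cox5b itself at 47.8, 53.8 and 52.1 FPKM in HepKO and 61.5, 58.4 and 51.2 FPKM in Flox. Ndufab1-ps averaged 5.12 FPKM over the 6 libraries, against 5.70 FPKM for Ndufab1. Not all of the symbols left out are annotated as pseudogenes. GENCODE M21 gives Cox5b-ps as protein coding and Ndufb1-ps as a bidirectional promoter lncRNA. Ndufb1-ps measured 12.7, 19.5 and 24.5 FPKM in HepKO and 24.3, 26.9 and 29.3 FPKM in Flox, and no gene named Ndufb1 is among the members.

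Members that overlap another expressed gene are uncertain too, since the use of strand in counting is not given. There were 19 such pairs. Ndufaf3 averaged 3.80 FPKM and lies across from Impdh2 at 12.4 FPKM, while Atp5pb averaged 47.7 FPKM across from Wdr77 at 6.59 FPKM.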
